A study of Rattus norvegicus with 12 samples.

Results

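The 10 genes studied here belong to the immediate early response and were followed through the vessel wall and the heart valves of newborn and adult rats. They are Fos, Fosb, Jun, Junb, Egr1, Atf3, Zfp36, Ier2, Ier3 and Nr4a1, chosen by name. Every probe set of the array annotated with 1 gene symbol equal to one of these was taken, which gave 13 probe sets, for 10 of the 14217 genes named in this way. Of these, 11 were bright enough to be tested, that is, with a signal above 171.944, the median of all values, on at least 3 of 12 arrays. The probe set of Fosb and one of 2 for Fos were not. Jun had 3 probe sets, all tested, and each of the other members had 1.

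The 12 arrays held RNA of Wistar rats in 4 groups of 3 by their titles, the aorta and the valve at each of both ages. Aorta means its proximal part, valve means aortic and pulmonary semilunar valves together, the newborn tissue was taken within 24 h of birth, and the adults were labelled male. No genetic change or treatment was labelled in any group. The labels do not say that arrays of a group came from separate animals, or whether animals were pooled, so a p-value here speaks only of the spread among these samples, which may be technical.

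Immediate early genes are transcribed within minutes of a stimulus from factors that are already present in the cell, with no need for new protein. Kinases of the MAP kinase family act on serum response factor and its partners at CArG boxes and on CREB-like factors at cAMP response elements, and the short-lived transcripts then fall again. In the vessel wall and in valves such genes are known to respond to stretch, shear, growth factors, injury and the handling of tissue. Fos, Fosb, Jun and Junb encode subunits of the AP-1 transcription factor. Egr1 is a zinc finger transcription factor, Atf3 a stress-induced factor of the ATF and CREB family, and Nr4a1 an orphan nuclear receptor. Zfp36 encodes tristetraprolin, which speeds the decay of AU-rich mRNAs, and Ier2 and Ier3 encode small proteins of the early response.

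The start site regions of the members were searched for the elements named above. They came from RefSeq (build GRCr8, 250 bases before to 50 after the start), which matched 6 of the 10 genes: Fosb, Junb, Egr1, Zfp36, Ier2 and Nr4a1. Fos, Jun, Atf3 and Ier3 were not matched. The 3 regions printed here are those of the 6 that hold a CArG box or a full cAMP response element. Capitals mark the CArG boxes, the cAMP response element TGACGTCA and its core TGACG, which reads CGTCA on the other strand.
Egr1 (chr18:26736828-26737127, plus strand): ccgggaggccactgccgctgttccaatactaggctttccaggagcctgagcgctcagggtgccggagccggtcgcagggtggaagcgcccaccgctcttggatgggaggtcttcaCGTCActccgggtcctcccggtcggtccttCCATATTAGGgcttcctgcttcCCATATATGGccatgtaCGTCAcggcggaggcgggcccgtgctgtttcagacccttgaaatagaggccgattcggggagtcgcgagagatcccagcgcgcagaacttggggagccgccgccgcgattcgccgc
Zfp36 (chr1:92799059-92799358, minus strand): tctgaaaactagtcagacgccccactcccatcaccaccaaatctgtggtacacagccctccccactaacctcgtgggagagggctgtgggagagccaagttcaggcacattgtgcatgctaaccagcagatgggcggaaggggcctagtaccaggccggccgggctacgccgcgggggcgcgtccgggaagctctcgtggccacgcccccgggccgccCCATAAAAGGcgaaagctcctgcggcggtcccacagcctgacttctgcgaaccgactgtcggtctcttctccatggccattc
Ier2 (chr19:40399123-40399422, plus strand): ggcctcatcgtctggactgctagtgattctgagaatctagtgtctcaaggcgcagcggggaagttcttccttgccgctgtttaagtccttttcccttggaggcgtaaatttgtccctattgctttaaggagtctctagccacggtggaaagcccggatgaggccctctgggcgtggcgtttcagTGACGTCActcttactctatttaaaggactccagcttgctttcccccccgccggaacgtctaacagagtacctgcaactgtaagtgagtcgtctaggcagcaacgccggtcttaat

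In Egr1 the CArG boxes began 105 and 83 bases before the start site, with a TGACG core at 135 and at 66. Zfp36 had 1 CArG box, which began 32 bases before the start. Ier2 had the full element TGACGTCA at 66 bases before it, and this element holds the TGACG core on both strands. Among the other regions, Nr4a1 had 4 TGACG cores, Junb had 1 core and a TATAAA, and Fosb had a TATAAA. All motifs were searched on both strands. Of 33469 RefSeq regions of the same length, 1.64% held a CArG box, 1.83% TGACGTCA, 21.2% TGACG, 14.2% TATAAA and 7.33% the AP-1 motif TGANTCA, which was in 0 of the 6 windows. A match describes letters in this window and is not evidence of binding.

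Several features of the arrays moved with the groups. The labels of 6 samples conflicted: for arrays titled adult aorta the description and tissue entries named neonatal valve, and for those titled neonatal valve they named adult aorta. Groups here follow title and source name, and grouping by the other entries exchanges the 4 comparisons of 2 groups with one another. The adult samples were labelled male, yet Xist, the RNA of the inactive X chromosome, read 10998 to 18362 on all 6 valve arrays and 5.08 to 297 on the aorta arrays. Xist thus divides the arrays exactly by tissue, so a difference in the sex of the animals and the tissue cannot be told apart. The 3'/5' ratio of beta-actin, a measure of RNA and labelling quality, was 1.4 to 2.59 in the aorta samples against 7.24 to 14.0 in the valve samples, so this quality and the tissue cannot be told apart. Neonatal aorta 2 and 3 lacked the added control RNAs, whose probe sets read 2.52 to 54.6 there, and signals that low are called the level of absent RNA here. The summed signal of 8 cardiac muscle markers was 32408 to 56611 on neonatal aorta, 527 to 1503 on adult aorta, 82204 to 97361 on neonatal valve and 3914 to 89049 on adult valve arrays, with Tnni3, Myl2 and Nppa at the absent level on adult aorta. The 7 adipocyte markers summed to 5997 to 105979.6 on aorta and 542 to 1536 on valve arrays, with 5 of 7 (Adipoq, Plin1, Lep, Cidec and Ucp1) at the absent level on neonatal valve. Adult aorta 1 stood apart with skeletal muscle markers at 162122, against at most 36833 on any other array. Squamous epithelium markers were at 146676 on adult aorta 1 and at 75220.4 on neonatal aorta 2, against at most 6384 on any other array. Neonatal valve 3 stood apart with thymocyte and T cell markers at 33943, against at most 3091 on any other array. No marker of smooth muscle or of valve fibroblasts was at the absent level on all arrays of any group. The part of these features in the results was not tested, and in bulk tissue fewer cells of a type cannot be told apart from less RNA per cell.

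The members did not move as one block across the 12 arrays. By the mean of the 9 tested genes, each standardised over the arrays (in SD units), the neonatal aorta arrays had -0.81, -0.56 and -0.07, and the neonatal valve arrays -0.28, -0.52 and -0.02. The adult aorta arrays had 0.39, 0.54 and 0.58, and the adult valve arrays 0.21, -0.05 and 0.59. The mean was thus below 0 on all newborn arrays and above 0 on all adult arrays but adult valve 2, which lay within the newborn range. Arrays of the same group also differed from each other in many members at once. Neonatal aorta 3 was the highest of its group for 7 of the 10 genes, and neonatal aorta 1 the lowest for 8. Neonatal valve 3, the array with thymocyte markers, was the highest of its group for 6 (Junb, Egr1, Atf3, Zfp36, Ier3 and Nr4a1). Adult valve 3 was the highest of its group for 7 genes (Fos, Fosb, Jun, Junb, Egr1, Ier2 and Nr4a1). Its smooth muscle marker sum was 1609.7, the lowest of all 12 arrays, against 43049.97 and 25647 on adult valve 1 and 2. Its endothelial sum (33791) and red blood cell sum (53210.1) were the highest of any array. The part of this marker content was not tested. Adult valve 2, whose cardiac marker sum was 89049 against 15810.5 and 3914 on the others of its group, was the highest for 0 and the lowest for 5. In the adult aorta the genes split: adult aorta 1 was the lowest for Fos, Fosb, Jun, Egr1, Atf3 and Zfp36 and the highest for Junb, Ier2 and Ier3.

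**Figure D1:**
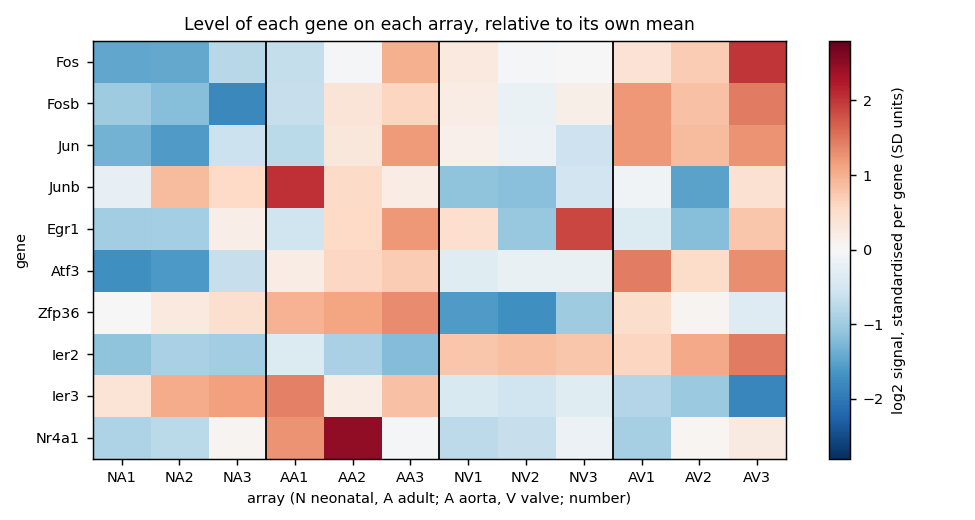
Level of each member's leading probe set (the one with the highest mean) on each of 12 arrays, as log2 signal minus the gene's own mean over the arrays, divided by its SD; red is high and blue is low. Atf3, Fos and Fosb are blue on neonatal aorta and red on adult valve, Ier2 divides the arrays by tissue, and Ier3 runs against it.

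Fos, whose product pairs with Jun proteins to form AP-1, was low in the newborn aorta and higher elsewhere. By probe set 1375043_at its signal was 184, 186 and 339 on neonatal aorta arrays and 686, 699.9 and 914 on neonatal valve arrays. It was 379, 676 and 1786 on adult aorta and 1019.6, 1353 and 4538 on adult valve arrays. The neonatal aorta arrays lay below all 9 others, while adult aorta overlapped both valve groups, and adult aorta 3 and adult valve 3 were far above the others of their groups. The dim probe set of Fos, 1371283_at, read 3.84 to 77.4 over the 12 arrays, with only neonatal aorta 1 (73.4) and adult aorta 1 (77.4) above the level of absent RNA. On it the neonatal valve arrays (3.84 to 7.71) lay below the neonatal aorta arrays (10.2 to 73.4), the opposite order to 1375043_at.

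Fosb, a close relative of Fos, had the same order of groups at a dimmer signal. It read 13.8, 23.9 and 28.6 on neonatal aorta, all within the level of absent RNA, and 58.9, 80.7 and 82.9 on neonatal valve arrays. On adult aorta it read 39, 95.7 and 119, and on adult valve 144, 202 and 254. Adult valve was above all other arrays and neonatal aorta below them, while adult aorta and neonatal valve, the neighbours in the middle, overlapped.

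Jun, the main partner of Fos in AP-1, varied less. By its brightest probe set, 1369788_s_at, it read 1096, 1222 and 1641 on neonatal aorta, 1658, 1962 and 2227 on neonatal valve, 1548, 2383 and 3404 on adult aorta, and 3003, 3442 and 3510.1 on adult valve arrays. Neonatal aorta lay below neonatal valve and neonatal valve below adult valve, while adult aorta overlapped all of them. The other probe sets gave another order: 1374404_at had its highest group mean (444) on adult aorta (431, 439 and 464) and overlapped between neonatal aorta (155, 234 and 249) and neonatal valve (199, 226 and 263). Adult valve 3 was the highest of its group on 1369788_s_at (3510.1) and the lowest on 1374404_at (131) and 1389528_s_at (1018), so its level of Jun depends on the probe set.

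Junb, an AP-1 subunit that can restrain Jun, had its higher signals in the aorta and a wide spread. It read 167, 349 and 468 on neonatal aorta and 68.3, 71 and 124 on neonatal valve, with no overlap. On adult aorta it read 251, 340.03 and 1384, where the highest value is that of adult aorta 1, and on adult valve 50.2, 187 and 305. The adult groups overlapped each other and their newborn counterparts, with a 5.52-fold range within adult aorta and 6.08-fold within adult valve.

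**Figure D2:**
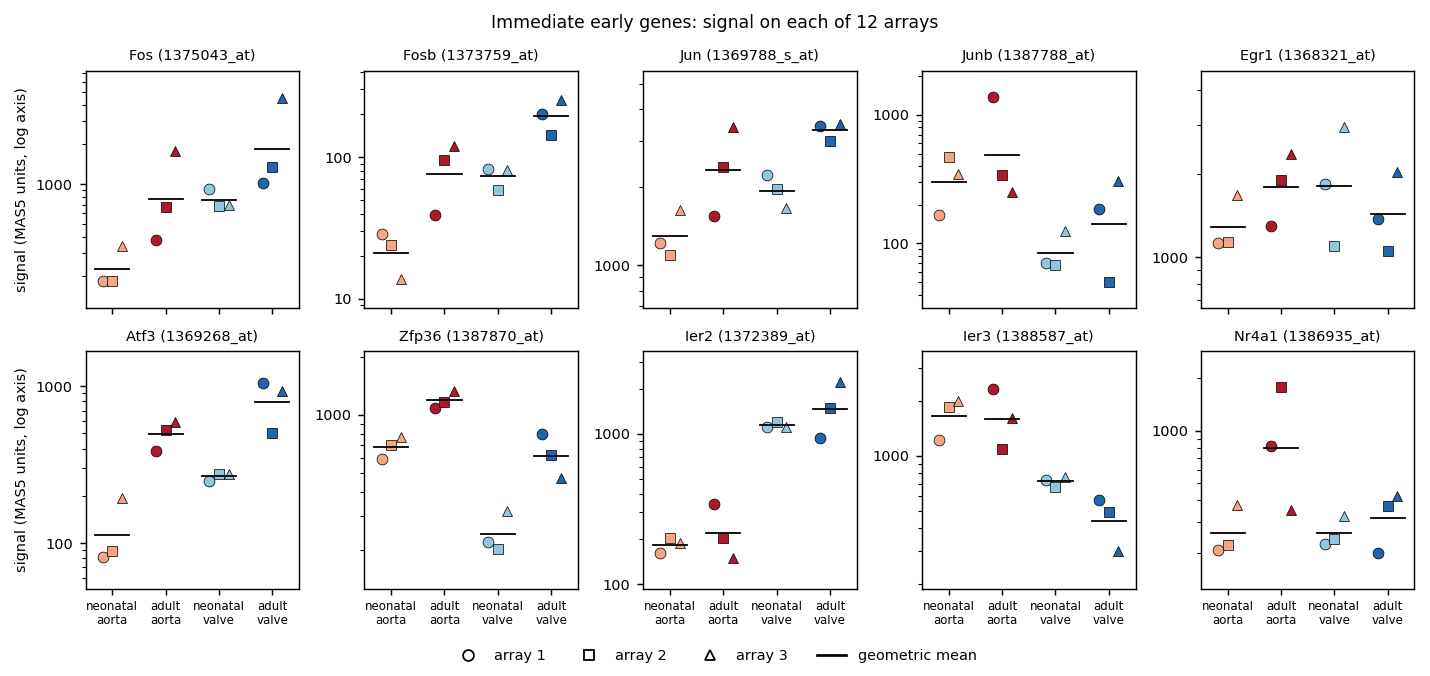
Signal (MAS5 units, log axis, a separate scale for each gene) of the leading probe set of the 10 members on each array, by group; the symbol gives the array's number within its group and the bar is the geometric mean of 3 arrays. Atf3 is higher in both adult groups, Zfp36 is lowest in neonatal valve, and Ier2 is at 944 or more on every valve array and at 342 or less on every aorta array.

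Among the other transcription factors, Atf3 differed most by age. It read 81.9, 89.3 and 193 on neonatal aorta and 388, 529 and 589.7 on adult aorta arrays. On neonatal valve it read 250.5, 276 and 276, and on adult valve 501, 939 and 1045. The order was neonatal aorta, neonatal valve, adult aorta and adult valve, with overlap only between the last 2, where adult valve 2 fell among the adult aorta arrays.

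Egr1, a factor that vascular cells raise quickly after injury, overlapped between all 4 groups. Its signal was 1129, 1135 and 1667 on neonatal aorta, 1295, 1891 and 2358 on adult aorta, 1096, 1827 and 2930.02 on neonatal valve, and 1049.6, 1372 and 2033 on adult valve arrays. The highest array of each group was its array 3. Nr4a1, a nuclear receptor gene induced early in vascular cells, was high on 2 arrays only. These were adult aorta 2 (1785), which also had the highest adipocyte marker sum of any array (105979.6), and adult aorta 1 (814). The 10 other arrays read 199.5 to 425, with adult aorta 3 at 354. Adult aorta lay above neonatal valve (224, 239 and 325), and every other pair of groups overlapped.

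Ier2 and Ier3 divided the tissues completely and Zfp36 did so at each age. Zfp36 read 590.5, 696 and 774 on neonatal aorta, 1083, 1167 and 1332 on adult aorta, 203, 220.3 and 319 on neonatal valve, and 472, 618 and 799 on adult valve arrays. Adult aorta was above every other array and neonatal valve below every other, while the middle groups, adult valve and neonatal aorta, overlapped. Ier2 read 161, 188 and 202 on neonatal aorta, 149, 203 and 342 on adult aorta, 1107, 1121 and 1195 on neonatal valve, and 944, 1479.5 and 2223 on adult valve arrays. Every valve array was above every aorta array, and the ages overlapped within each tissue. Ier3, whose product acts on cell survival and ERK signalling, had the reverse order. It read 1215, 1849.7 and 1979.99 on neonatal aorta, 1082, 1598 and 2327 on adult aorta, 676, 732 and 766 on neonatal valve, and 299.6, 494 and 572 on adult valve arrays. Here the valve ages did not overlap, with the adult valve arrays lower, and the aorta ages did.

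The first comparison asked how expression differed between the newborn and the adult aorta. Atf3 rose by 2.14 ± 0.37 in log2 (SE of the limma fit, 3 arrays per group), 4.41-fold, with an adjusted p of 0.0069 over the 18552 probe sets tested. It was the 1 member probe set of 11 called at an adjusted p under 0.05, where 7.31% of all probe sets were called. Of the 11, 10 had a positive difference and 7 an unadjusted p under 0.05. In all, 5 lay higher in the adult on every array (Fos, Atf3, Zfp36 and the Jun probe sets 1374404_at and 1389528_s_at) and 0 lower, against 10.7% and 20.2% of all tested probe sets.

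The other members did not pass, with either a larger error or a smaller difference than Atf3. For Fos the difference was 1.77 ± 0.61 (adjusted p = 0.10) and for Nr4a1 1.63 ± 0.51 (adjusted p = 0.080). Zfp36 had 0.80 ± 0.25 (adjusted p = 0.077), and the Jun probe sets ran from 0.84 to 1.09 (adjusted p = 0.074 to 0.12). These genes had the sign of Atf3 and unadjusted limma p of 0.0075 to 0.017, but did not pass after adjustment over all probe sets tested. Ier2 (0.25 ± 0.34), Egr1 (0.48 ± 0.38), Junb (0.71 ± 0.74) and Ier3 (-0.05 ± 0.32) were nearer to 0. The median over the 9 tested genes was 0.80, beside -0.11 over all 10411 genes tested. With the lack of control RNAs (neonatal aorta 2 and 3) as a block, the fit set the adult arrays against neonatal aorta 1 alone. Atf3 was then at 2.59, and calls are not read from that fit. Without adult aorta 1, the array with the highest skeletal muscle and squamous marker sums, 3 member probe sets were called, among them Fos at 2.28 (adjusted p = 0.031). Without adult valve 3, which enters only through the shared spread, 4 were called, among them Fos, Jun 1374404_at and Jun 1389528_s_at.

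In the valve, 2 of the 11 member probe sets rose with age, where 9.21% of all probe sets were called. Zfp36 rose by 1.34 ± 0.25 in log2, 2.54-fold (adjusted p = 0.0092), and Atf3 by 1.56 ± 0.37, 2.95-fold (adjusted p = 0.025). The call for Atf3 was lost when neonatal valve 1, 2 or 3 or adult valve 1 or 3 was left out, at 1.36 to 1.59 and adjusted p = 0.065 to 0.084, while that for Zfp36 was kept in each case. The groups did not overlap for 4 tested probe sets that were higher in the adult (Fos, Jun 1369788_s_at, Atf3 and Zfp36) and for 1 that was lower (Ier3), against 14.9% and 18.5% of all.

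Fos differed by 1.28 ± 0.61 (adjusted p = 0.20), Jun 1369788_s_at by 0.77 ± 0.28 (adjusted p = 0.10) and Ier3 by -0.72 ± 0.32 (adjusted p = 0.18). Fosb, which was too dim for the test, was at 1.41 ± 0.50 in a fit with no filter (adjusted p = 0.14). Fos and Fosb were thus higher on every adult array without passing. Junb (0.75 ± 0.74), Ier2 (0.35 ± 0.34), Nr4a1 (0.29 ± 0.51) and Egr1 (-0.33 ± 0.38) had groups that overlapped. The median of the 9 genes was 0.75, beside -0.05 over all genes. Cardiac marker sums differed in the same comparison, from 82204 or more on each neonatal valve array to 15810.5 or less on adult valve 1 and 3, with adult valve 2 at 89049. Endothelial marker sums were 7697 to 10745 on neonatal and 11317 to 33791 on adult valve arrays, and 2 of 7 macrophage markers were called higher in the adult (list median 1.02). The part of these cell types was not tested.

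**Figure D3:**
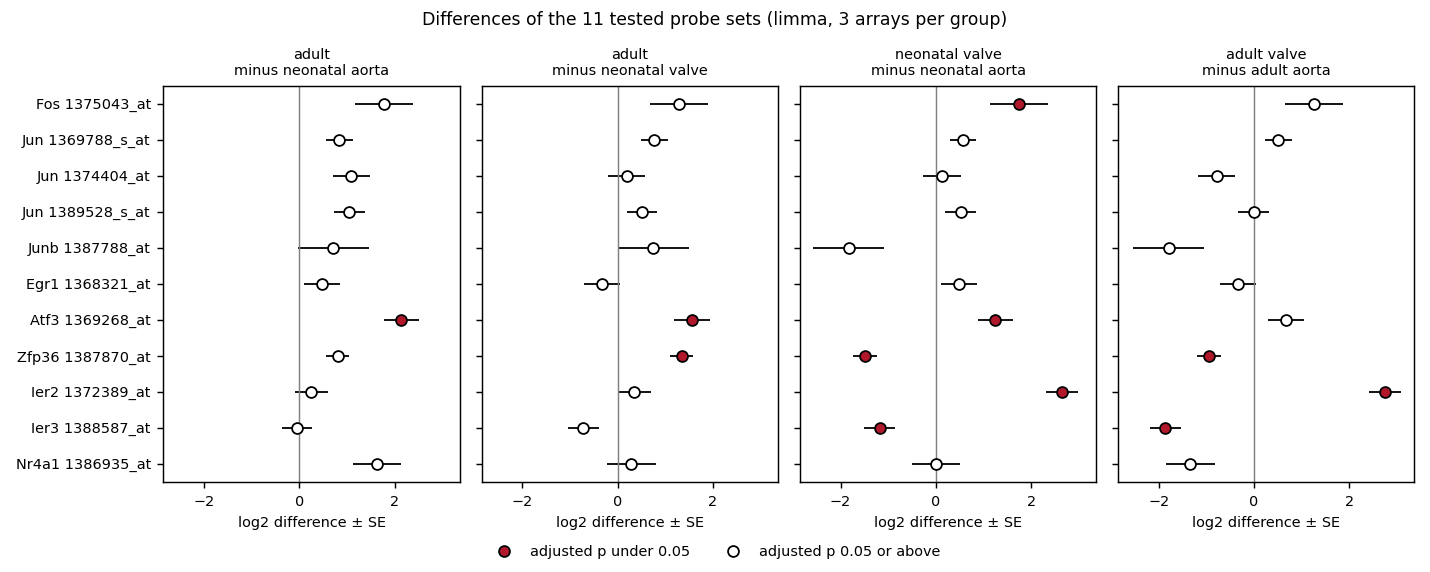
Log2 difference ± SE (limma, 3 arrays per group) of the 11 tested probe sets in the 4 comparisons of 2 groups; filled points have an adjusted p under 0.05 over all probe sets tested. Filled points lie to the right in the age comparisons (Atf3 in both, Zfp36 in the valve) and on both sides of 0 in the tissue comparisons, with Ier2 farthest right at 2.64 and 2.74.

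The age difference in the valve minus that in the aorta was tested directly. By limma 0 of the 11 member probe sets passed, with 0.0593% of all probe sets called, and 0 had an unadjusted p under 0.05. The nearest was Nr4a1, at -1.34 ± 0.73 (unadjusted p = 0.092, adjusted p = 0.50). Zfp36, called in the valve and not in the aorta, had a difference of 0.54 ± 0.35 (adjusted p = 0.57), so its age differences were not shown to differ. Atf3 had -0.58 ± 0.52 (adjusted p = 0.70) and Fos -0.49 ± 0.86 (adjusted p = 0.86).

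**Figure D4:**
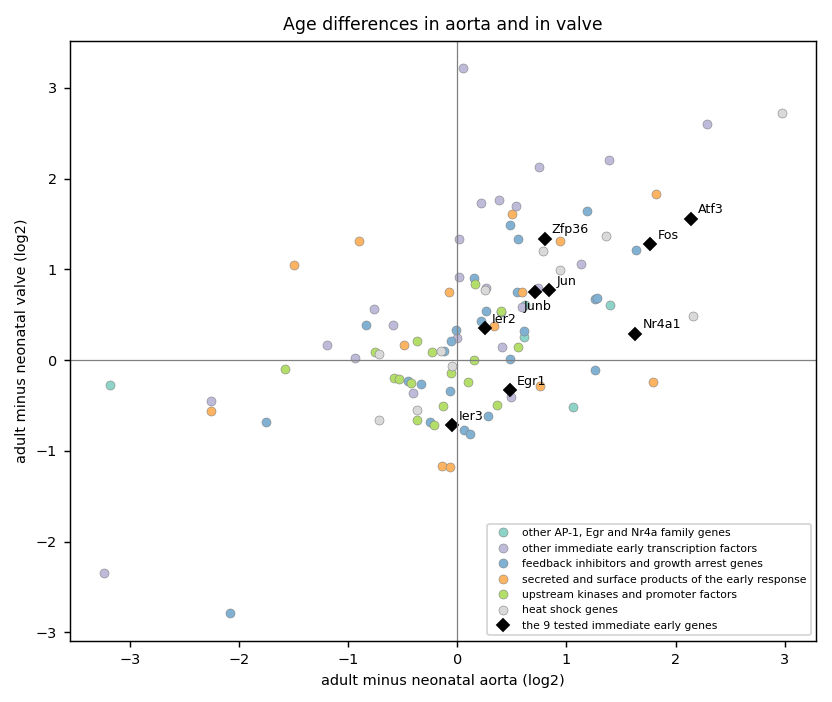
Log2 difference between adult and neonatal aorta (x axis) and between adult and neonatal valve (y axis) for the 9 tested members (black, named) and for other genes of the early response and heat shock lists (coloured by list, 1 point per gene). Atf3, Fos, Zfp36, Jun, Junb, Ier2 and Nr4a1 lie above 0 on both axes, Egr1 is above 0 only in the aorta, and Ier3 is below 0 on both.

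Between the newborn tissues, members differed in both directions. Ier2 was higher in the valve by 2.64 ± 0.34 in log2, 6.23-fold (adjusted p = 0.00035), Atf3 by 1.25 ± 0.37 (adjusted p = 0.023) and Fos by 1.75 ± 0.61 (adjusted p = 0.046). Zfp36 had -1.49 ± 0.25, 2.82-fold lower in the valve (adjusted p = 0.0014), and Ier3 had -1.18 ± 0.32, 2.27-fold lower (adjusted p = 0.017). These are 5 of 11 probe sets, where 32.6% of all probe sets were called. The groups did not overlap for 5 that were higher in the valve and 3 that were lower, against 26.2% and 33.5% of all. Beside the called ones these were Jun 1369788_s_at (0.57 ± 0.28), Jun 1389528_s_at (0.52 ± 0.32) and Junb (-1.83 ± 0.74, adjusted p = 0.080). Fosb was also higher in the valve on every array, and a fit with no filter called it (adjusted p = 0.025), against neonatal aorta arrays at the level of absent RNA. In that same fit the call for the brighter Fos probe set was lost (1.75, adjusted p = 0.056). The dim one, 1371283_at, was called there in the other direction, lower in the valve (-2.51, adjusted p = 0.049). Of its signals in these groups, only that of neonatal aorta 1 (73.4) was above the level of absent RNA. With no filter, 6 member probe sets were called, 3 higher and 3 lower in the valve. Egr1 (0.49 ± 0.38) and Nr4a1 (signals of 207 to 378 and 224 to 325) overlapped.

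With the lack of control RNAs as a block, the newborn comparison likewise rested on neonatal aorta 1 alone, so no calls are read from it. Under that block Atf3 was at 1.71, Zfp36 at -1.28, Fos at 2.04 and Ier3 at -0.75. The call for Fos was lost without any 1 of 8 arrays (adjusted p up to 0.13), that for Atf3 without neonatal aorta 1 or 2 or any neonatal valve array (up to 0.088), and that for Ier3 without neonatal aorta 2 or 3 (up to 0.068). Those for Ier2 and Zfp36 were kept without each array. The call for Fos was also lost with a pseudocount of 32 (adjusted p = 0.053) and with no intensity trend (0.052), and that for Ier3 with arrays centred on their medians (-0.85, adjusted p = 0.088).

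The adult tissues differed in the same 3 genes of the decay and signalling group. Ier2 was higher in the valve by 2.74 ± 0.34, 6.69-fold (adjusted p = 0.00025). Ier3 had -1.86 ± 0.32, 3.62-fold lower in the valve (adjusted p = 0.0015), and Zfp36 -0.95 ± 0.25, 1.93-fold lower (adjusted p = 0.012). These 3 of 11 stand beside 37.1% of all probe sets. The same 3 probe sets were the ones whose groups did not overlap, 1 higher and 2 lower, against 21.1% and 23.2% of all. With arrays centred on their medians, Zfp36 was at -0.56 (adjusted p = 0.13), its call was also lost when only the groups compared were fitted (adjusted p = 0.053), and 5 member probe sets were called, 4 higher and 1 lower in the valve.

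No other member passed here. Fos (1.26 ± 0.61, adjusted p = 0.12), Jun 1369788_s_at (0.51 ± 0.28), Atf3 (0.67 ± 0.37, adjusted p = 0.17), Nr4a1 (-1.34 ± 0.51, adjusted p = 0.060), Junb (-1.79 ± 0.74, adjusted p = 0.079) and Egr1 (-0.33 ± 0.38) all overlapped. The probe sets of Jun differed in sign, with 1374404_at at -0.78 ± 0.39. Fosb was higher on every adult valve array, at 1.35 ± 0.50 with no filter (adjusted p = 0.066). The median over the 9 genes was -0.33 between adult tissues and 0.49 between newborn tissues, beside -0.01 and -0.06 over all genes.

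**Figure D5:**
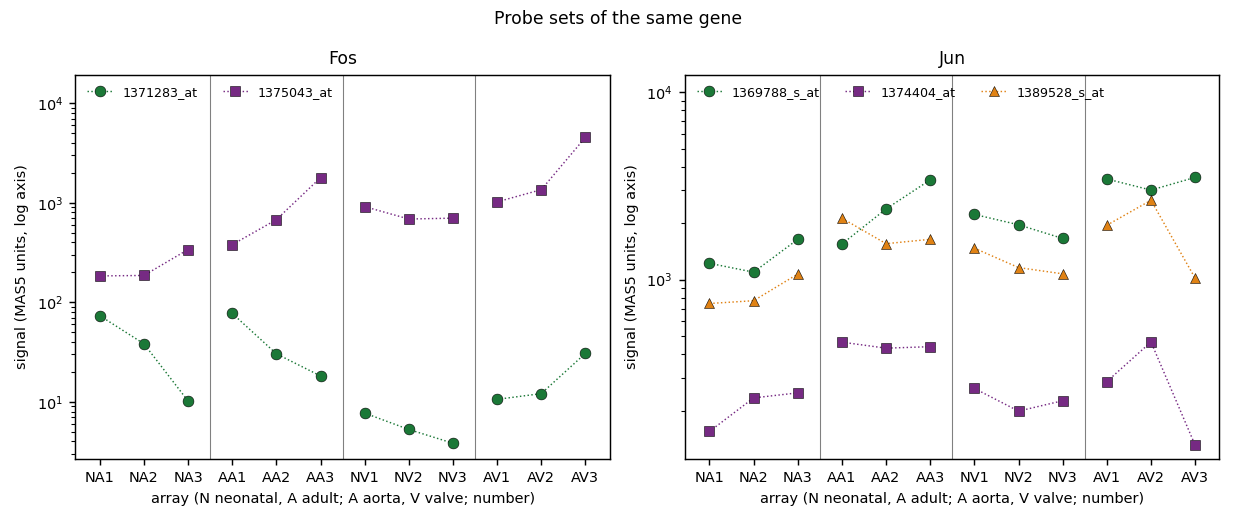
Signal (MAS5 units, log axis) of the probe sets of Fos and of Jun on each array, with lines joining arrays of a group only to guide the eye; array names give age, tissue and number. The Fos probe sets run in opposite order between neonatal aorta and neonatal valve, and on adult valve 3 the Jun probe sets part, with 1369788_s_at at 3510.1 and 1374404_at at 131.

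How far a tissue difference depends on the probe set was also read over the whole array, a check chosen after the values of Fos and Jun were seen. Of 2748 genes with at least 2 tested probe sets, both called between newborn tissues were 437, and in 153 of these (35.0%) the probe sets had opposite signs. Between adult tissues it was 222 of 571 (38.9%). By age, opposite signs were found in 0 of 90 genes in the aorta and in 0 of 103 in the valve. Ier2, Ier3, Zfp36 and Atf3 each have 1 probe set, so their tissue differences could not be checked in this way. The 3'/5' ratios given above moved with the tissue, and their part in these signs was not tested.

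Other genes of the pathway were taken from lists chosen by function, with 1 probe set per gene. The counts of each list are to be read beside the shares of all probe sets called. These were 7.31% by age in the aorta, 9.21% in the valve, 32.6% between newborn and 37.1% between adult tissues. Of 11 other AP-1, Egr and Nr4a family genes 6 were tested. By age 0 passed in limma, with 1 at an unadjusted p under 0.05 in the aorta and 0 in the valve. Between newborn tissues 1 was higher in the valve and 2 lower: Egr2, a relative of Egr1, had 2.31 ± 0.49 (adjusted p = 0.0049), with 74.4 to 124 on neonatal aorta and 327 to 1022 on neonatal valve arrays. Jdp2, a repressor of AP-1, went from 252 to 325 on neonatal aorta to 3.6 to 59 on neonatal valve arrays (adjusted p = 0.018). It passed the filter on dim values only through the neonatal aorta arrays, the group where it is high, so its call is given as a description. Egr3 was the 1 called between adult tissues, with 172 to 215 on aorta and 35.2 to 64.6 on valve arrays (adjusted p = 0.0061). It too passed the filter only through aorta arrays.

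Of 25 other transcription factors and regulators listed with the early response, among them Id1, Id2 and Id3, 23 were tested. In the valve 6 rose with age and 0 fell, where 9.21% of all probe sets were called. In the aorta 1 rose and 1 fell, where it was 7.31%. Klf9, a Krüppel-like factor induced by glucocorticoids and thyroid hormone, was the 1 called in the same direction in both tissues, with 2.29 ± 0.29 in the aorta (adjusted p = 0.0014) and 2.60 ± 0.29 in the valve (adjusted p = 0.00086). Between newborn tissues 1 was higher and 6 were lower in the valve. Cebpb, a factor of the acute phase and of fat cells, read 1435 to 1557 on neonatal aorta and 4.49 to 59.4 on neonatal valve arrays (adjusted p = 0.00044). Id3 and Id1, inhibitors of basic helix-loop-helix factors, had -3.28 ± 0.44 (adjusted p = 0.00044) and -1.71 ± 0.34 (adjusted p = 0.0035). Between adult tissues 5 were higher and 4 lower in the valve. Of all probe sets, 32.6% were called between newborn and 37.1% between adult tissues.

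Of 30 feedback inhibitors and growth arrest genes 26 were tested. With age 2 rose and 1 fell in the aorta, and 2 rose and 0 fell in the valve. In the valve 1 was higher and 3 were lower between newborn tissues, and 1 was higher and 5 were lower between adult tissues. Ppp1r15a, which restores translation after stress, had -1.75 ± 0.25 between adult tissues (adjusted p = 0.00053), and the stress kinase gene Plk3 -1.06 ± 0.30 (adjusted p = 0.018). Between newborn tissues Nfkbia, the inhibitor of NF-kappa-B, had -1.26 ± 0.21 (adjusted p = 0.0012) and the pseudokinase gene Trib1 -2.12 ± 0.43 (adjusted p = 0.0038). These 4 were picked by smallest adjusted p and do not speak for the list. Of all probe sets, 32.6% were called between newborn and 37.1% between adult tissues, and 7.31% and 9.21% by age in aorta and valve. Plk3 passed the filter on dim values only through adult aorta arrays, and Trib1 only through aorta arrays, where each is high.

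A list of secreted, surface and other products of the response, among them Ptgs2, Rhob, Rnd3, Arc and Homer1, was tested for 14 of 23 genes. By age 1 fell in the aorta and 0 passed in the valve (limma), where 6 had an unadjusted p under 0.05, 4 of them higher in the adult. Lower in the valve than in the aorta were 3 between newborn and 2 between adult tissues, and higher were 0 at both ages, also at an unadjusted p under 0.05. Beside these counts stand 32.6% and 37.1% of all probe sets called between newborn and adult tissues. By age it was 7.31% in the aorta and 9.21% in the valve. Plaur, the urokinase receptor, had -2.51 ± 0.48 (adjusted p = 0.0027), Hbegf, a growth factor that acts on the EGF receptor, -1.60 ± 0.33 (adjusted p = 0.0042), and Edn1, the vasoconstrictor endothelin, -1.77 ± 0.43 (adjusted p = 0.010) between newborn tissues. Plaur passed the filter on dim values only through the neonatal aorta arrays, the group where it is high, so its call is given as a description. Ccn1, a matrix protein made early after stretch, had -1.70 ± 0.50 between adult tissues (adjusted p = 0.020).

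The kinases and promoter factors that act upstream of the members were tested for 17 of 22 genes. By age 1 fell in the aorta and 0 passed in the valve (limma, 2 at an unadjusted p under 0.05). At each age 5 were higher and 3 lower in the valve than in the aorta. The shares of all probe sets were 7.31% and 9.21% by age in aorta and valve, 32.6% between newborn and 37.1% between adult tissues. Between adult tissues Atf1, a CREB relative that binds cAMP response elements, had 1.09 ± 0.22 (adjusted p = 0.0030) and Rps6ka5, a kinase of CREB and histone H3, 0.97 ± 0.22 (adjusted p = 0.0055). Atf2, a partner of Jun, had -2.85 ± 0.36 (adjusted p = 0.00028), and Mapk9, a Jun kinase gene, -1.64 ± 0.35 (adjusted p = 0.0041). Atf2 passed the filter on dim values only through aorta arrays, where it is high. The other tested probe set of Rps6ka5, 1382271_at, had 262 to 408 on adult aorta and 202 to 312 on adult valve arrays, in the other direction. With the lack of control RNAs as a block, neonatal aorta 1 alone stood for its group, so calls are not read from that fit. Between newborn tissues Egr2 was then at 2.26, Jdp2 at -4.78, Id1 at -1.88 and Trib1 at -1.95. Plaur was at -2.21, Hbegf at -1.39 and Edn1 at -1.55, and Klf9 was at 1.87 in the aorta. The call for Jdp2 was lost without any 1 of the neonatal aorta arrays or neonatal valve 1 or 3, that for Ccn1 without adult aorta 2 or 3 or adult valve 1, and that for Plk3 without adult valve 1, with arrays centred on their medians, with quantile normalization and with only the groups compared (adjusted p = 0.054 to 0.12).

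The genes whose pattern was most like the mean of the 9 standardised members over the 12 arrays were found by Pearson correlation among all other tested genes. They were Isg15 (r = 0.875), Kiaa0040 (0.868), Ctns (0.864), Tacc2 (0.859) and Aqp1 (0.856), and all points share the arrays and their scaling. Isg15, an interferon-induced ubiquitin-like protein gene, read from 20.8 on neonatal valve 2 to 904 on adult valve 3. Aqp1, a water channel gene, read from 646 on neonatal valve 2 to 3485 on adult valve 3, and Ctns, the lysosomal cystine transporter gene, from 303 on neonatal aorta 1 to 637 on adult valve 3. Kiaa0040 was highest on adult aorta 3 (1576) and Tacc2 on adult valve 1 (5337). These correlations were chosen as the highest and are given as a description.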

How the data were processed

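Trizol and RNeasy columns served to extract RNA, which was labelled by in vitro transcription for Affymetrix arrays, per the labels' protocols. Deposited were intensity values on a linear scale, 1 signal per probe set, which the authors made by MAS5 in Affymetrix Expression Console, per the submitters' processing notes. The sources used here do not give versions or a scaling target. Of 31099 probe sets, 57 controls were left out, and 20826 had 1 gene symbol in the platform annotation (20758 matched by gene ID). Signals below 1 were set at 1 (12 to 185 per array) before log2, with no further normalization, and 18552 probe sets (59.8%) passed the filter on dim values. Their signals had within-group Spearman correlations of 0.70 to 0.955.

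One model with a mean per group was fitted to the 12 arrays in limma 3.58.1 (R 4.3.3, eBayes with an intensity trend, two-sided) with adjustment by Benjamini and Hochberg over all probe sets tested. Each error is a standard error from the fit. The fit was tested on simulated data. Precision is limited by 3 arrays per group, and median signals were 182 to 202 on aorta and 133 to 169 on valve arrays. All members are named, with up to 4 genes per other list by smallest adjusted p plus those called alike in both tissues by age, and the 5 genes most like the members. The members and lists were chosen with earlier results of these data known. Other normalizations, filters, blocks, array weights, groupings and each array left out were tried. Deviations of same-numbered arrays from their group means correlated at -0.314 to 0.237 over 18 pairs. With 3 arrays per group and differing marker content this cannot decide whether the numbers pair samples, and the main fit treats the arrays as unpaired.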

Additional observations from a re-analysis of the deposited data

How the results depend on the processing

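Precision rests on 3 arrays per group, and signals of 54.6 or less cannot be told from absent RNA. Counts of called probe sets are given as those of the members and then of all. By age in the aorta they were 1 and 1357, in the valve 2 and 1709, between newborn tissues 5 and 6043, between adult tissues 3 and 6891, and for the difference of age differences 0 and 11. Array weights gave 7 and 4763 in the aorta, 2799 of all in the valve, 8 and 9706 between newborn tissues, 5 members between adult tissues and 165 of all for the difference. With the lack of control RNAs as a block the aorta gave 0 and 69, newborn tissues 1 and 1416, and the difference 1 of all. Fits on only the groups compared gave 811 of all in the aorta and 3646 between adult tissues, and have no value for the difference. Quantile normalization gave 4 members in the aorta. Centring arrays on their medians gave 5 members between adult tissues. It moved the median difference of all probe sets from -0.09 to 0.24 between newborn and from -0.05 to 0.34 between adult tissues. The share of calls that were higher in the valve moved from 40.7% to 63.1% and from 46.5% to 70.1%, and that of calls higher in the adult valve from 43.4% to 56.6%. For the difference, a filter on 6 arrays gave 4, and no intensity trend 7.

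The fit with the replicate number as a block gave 1, 2, 5, 3 and 0 member calls in the same order, and of all probe sets 1 for the difference. It changed no member's call, and only Hsph1 among the named genes lost one, in the aorta. Leaving out each array in turn gave 431 to 2485, 662 to 3093, 4101 to 7386, 5692 to 7048 and 1 to 37 calls of all, and 1 to 4, 1 to 3, 2 to 6, 3 to 7 and 0 members. Without adult aorta 1 the aorta had 2485 and the valve 3093. The cause of these changes was not tested.

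Grouping by description and tissue entries exchanges the comparisons. It gave 5 and 6043 calls in the aorta, 6891 of all in the valve, 1 and 1357 between newborn and 1709 of all between adult tissues. Zfp36 then had -1.49 and -0.95 by age in aorta and valve, and 0.80 and 1.34 between newborn and adult tissues. Between newborn tissues Junb was at 0.71, Cebpb 0.05, Nfkbia 0.48 and Hbegf 0.59. Between adult tissues Egr3 was at 0.25, Ppp1r15a 0.67, Plk3 0.69 and Atf1 -0.25, and Hsph1 by age was at -0.06 in both. No other alternative tried turned the sign of the gene values recomputed here. Of 513 values of single genes under alternatives other than leaving out an array, 436 kept direction and call, 49 lost the call, 14 gained it and 14 turned.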

Other observations

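Heat shock and stress genes, which are also induced when tissue is handled or heated, were tested for 11 of 14 genes. With age 2 rose and 0 fell in each tissue, where 7.31% of all probe sets were called in the aorta and 9.21% in the valve. Hsph1, a large chaperone gene, was called in both, with 1.36 ± 0.33 in the aorta (adjusted p = 0.031) and 1.37 ± 0.33 in the valve (adjusted p = 0.028). It read 759.9 to 1357 on neonatal aorta, 2272 to 3514 on adult aorta, 893 to 1116 on neonatal valve and 1595 to 3899 on adult valve arrays. On its other tested probe set, 1385620_at, the valve ages overlapped (75.6 to 199.9 and 74.5 to 423), and the aorta ages did not (226 to 634 and 818 to 1082). Ddit3, a factor of the endoplasmic reticulum stress response, rose in the valve by 1.20 ± 0.24 (adjusted p = 0.014), from 358 to 393 up to 766 to 943. Between adult tissues 2 were higher and 2 lower in the valve, where 37.1% of all probe sets were called. The co-chaperone genes Dnajb1 and Dnaja1 had 1.38 ± 0.32 (adjusted p = 0.0065) and 0.98 ± 0.24 (adjusted p = 0.0093), and Atf4, a factor of the integrated stress response, -0.92 ± 0.23 (adjusted p = 0.010). The other tested probe set of Dnajb1, 1383302_at, went the other way, with 525 to 1569 on adult aorta and 142 to 349 on adult valve arrays. The call for Hsph1 was lost in both tissues when only the groups compared were fitted (adjusted p = 0.053). It was also lost without most single arrays of the groups compared (1.07 to 1.55 over all that lost it). With the lack of control RNAs as a block, which leaves neonatal aorta 1 alone in its group, Hsph1 was at 1.27 in the aorta. The call for Ddit3 was lost without neonatal valve 1 (1.17, adjusted p = 0.053), and that for Atf4 with arrays centred on their medians (-0.53, adjusted p = 0.12). When only the groups compared were fitted, the calls between adult tissues were lost for Dnajb1 (adjusted p = 0.053), Dnaja1 (0.071) and Atf4 (0.081).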
